A study of Mus musculus with 8 samples.

Results

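The genes described here are the replication-dependent core histone genes and the linker histone genes of the mouse, read in B16F10 melanoma cells in which cyclophilin D (CypD, encoded by *Ppif*) had been knocked out or, per the labels, overexpressed. They were chosen by symbol alone, as every gene named H1f, H2ac, H2bc, H3c or H4c followed by a number, which gave 70 of the 55414 genes in the table. The symbols comprised 11 H1, 18 H2A, 17 H2B, 12 H3 and 12 H4 genes.

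Total RNA was sequenced from 8 libraries in 4 groups of 2. WT B16F10 cells and *Ppif* knockout cells (CypD KO, made with CRISPR/Cas9 and selected as clones with puromycin) were kept for 24 h at 21% O2. Cells stably carrying empty pcDNA (Control) and cells stably carrying pcDNA with CypD (CypD OE), both selected with G418 as resistant clones, were kept for 24 h at 1% O2. The genotype comparisons were therefore made at different oxygen levels, and between Control and WT the oxygen level, the vector and the cell clone cannot be told apart. Between CypD KO and WT, loss of *Ppif* cannot be told apart from clone and selection, as no selection of WT is described. Between CypD OE and Control, the CypD plasmid cannot be told apart from the cell clone. Each library is given as TPM, a per-transcript share of the library corrected for length, which compares genes per length but holds no read depth, so the precision of low values is unknown. Neither the labels nor the methods say whether the 2 libraries of a group were separate cultures, and p-values measure the spread between these libraries, which may be technical.

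The targeted gene *Ppif* read 50.7 and 49.99 TPM in the 2 WT libraries against 10.4 and 12.1 in CypD KO. In Control it read 44.6 and 42.3 TPM, and in those labelled CypD OE 50.3 and 49.3, a difference of 0.19 on the log2(TPM + 1) scale that missed the threshold (limma adjusted p = 0.0794). Overexpression is thus not shown by these RNA values, and whether the plasmid transcript was counted under *Ppif* is not given in the sources used here. Values of CypD OE against Control therefore compare libraries by their labels. For protein, the paper reports western blots with CypD overexpressed in the resistant clones and lacking in the knockout clones. The 7 melanocyte genes fixed as markers of the line, among them *Dct* and *Pmel*, summed to 12400 to 21000 TPM. All 6 leukocyte and all 6 epithelial markers stayed below 1 TPM in each library. So did 3 of the 4 endothelial markers, while the fourth, *Pecam1*, reached 1.18 TPM in Control replicate 2. Of the 6 fibroblast markers *Dcn* and *Thy1* were listed at 0 throughout, yet the list summed to 34 to 36.9 TPM in CypD KO and 15.4 to 17.7 TPM in WT. *Postn* was higher in CypD KO (34.8 and 31.2 against 8.04 and 8.07 TPM), whereas *Col1a2*, the other fibroblast marker tested, was lower (1.09 and 2.17 against 9.03 and 6.87 TPM). In CypD OE the list summed to 9.21 to 11.3 TPM against 19 to 21 in Control, and both genes were called lower. The part of these markers in the histone differences was not tested.

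Each nucleosome wraps DNA around an octamer of H2A, H2B, H3 and H4, and H1 binds the linker DNA where it enters and leaves. The replication-dependent genes lie in clusters, have no introns in their classical form, and are made in S phase, when new DNA needs new histones. Their classical mRNAs end not in a poly(A) tail but just after a stem-loop, which stem-loop binding protein (SLBP) holds while the U7 small nuclear ribonucleoprotein directs the cut. When such genes are read through to a downstream poly(A) signal, as is known in differentiated or arrested cells, they give polyadenylated mRNAs. H1.0 (*H1f0*) and H1.10 (*H1f10*) are linker histones expressed outside S phase from genes that stand alone.

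The stem-loop was searched for on the sense strand within 200 bases after each stop codon in GRCm39, as the letters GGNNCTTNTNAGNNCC. It was present in 59 of 69 members searched and in 72 of all 21656 coding genes (0.332%), members included. *H1f0*, *H1f10* and *H2bc21* were among the 10 members without it. Across the 59 members there were 8 distinct stem-loops, and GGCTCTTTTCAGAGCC was shared by 36 of them from 4 families, whereas no H4 gene carried it and 7 of the 12 had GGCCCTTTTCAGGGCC. The 30-base windows of 7 members described in the results, from each of the 5 families, are shown because they carry the shared 3′ processing signal, with the stem-loop in capitals. They lie downstream of the coding sequence at chr13:23923488-23923517 (plus strand, *H1f2*), chr3:96147093-96147122 (minus, *H2ac19*), chr13:23868623-23868652 (plus, *H2bc4*), chr3:96154636-96154665 (plus, *H3c14*), chr13:23715621-23715650 (plus, *H4c8*), chr13:22225129-22225158 (minus, *H4c9*) and chr13:23735458-23735487 (minus, *H4c6*).
H1f2: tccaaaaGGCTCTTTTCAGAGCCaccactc
H2ac19: ctaaaaaGGCTCTTTTCAGAGCCacccact
H2bc4: ttccaaaGGCTCTTTTCAGAGCCacccact
H3c14: ccacaaaGGCTCTTTTCAGAGCCaccacag
H4c8: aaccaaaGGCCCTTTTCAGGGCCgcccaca
H4c9: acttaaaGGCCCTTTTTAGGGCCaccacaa
H4c6: tctcaaaGGCCCTTTTCAGGGCCacccact

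All 70 identifiers were found in the GENCODE vM39 annotation, where *H2ac14* is a pseudogene and the others code for protein. On chromosome 13 lay 55 members, 24 of them between 21899933 and 22227846 and 31 between 23715220 and 24118834. A further 10 lay on chromosome 3 between 96127181 and 96177448. The remaining 5 lay on chromosomes 6, 11 and 15, and all were H1 genes, *H1f0* and *H1f10* among them.

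Promoter windows from RefSeq (GRCm38.p6, 250 bases before to 50 after the start) were given for 62 members. The letters TATAAA were found on either strand in 54.8% of them and in 15.7% of all 27025 genes with a window. A gene was counted if any of its windows held the letters. CCAAT was found in 82.3% against 41.1%, in each of the 17 H2A, 14 H2B and 10 H3 genes and in 3 of the 11 H4 genes. The octamer ATTTGCAT was in 21.0% of the members against 1.97% of all genes with a window. It stood in 7 of 14 H2B and 6 of 17 H2A genes and in no H1, H3 or H4 gene. Windows of H2A and H2B genes on opposite strands can overlap, as for *H2ac8* and *H2bc8*. The same letters can then be counted in both families. The H1 box, AAACACA, was in 5 of 10 H1 genes and in 8.22% of all genes with a window. The 4 windows below belong to members that were higher in CypD KO, 1 from each of 4 families, and show the letters in these genes. That of *H2bc8* is shared with the H2A gene *H2ac8* over most of its length and is not particular to H2B. Capitals mark any of the 4 motifs on either strand, so that ATTGG is CCAAT read from the other strand, and no base fell in more than 1 motif. They lie at chr13:23738557-23738856 (plus strand, *H1f2*), chr3:96245247-96245546 (plus, *H2ac18*), chr13:23571150-23571449 (plus, *H2bc8*) and chr13:22041313-22041612 (minus, *H4c9*) in GRCm38.p6.
H1f2: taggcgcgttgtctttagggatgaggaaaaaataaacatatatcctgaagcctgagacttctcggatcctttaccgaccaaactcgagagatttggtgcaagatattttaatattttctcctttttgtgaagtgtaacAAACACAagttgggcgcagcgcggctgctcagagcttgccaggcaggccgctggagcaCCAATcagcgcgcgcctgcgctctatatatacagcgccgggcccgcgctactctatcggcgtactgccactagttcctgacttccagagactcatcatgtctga
H2ac18: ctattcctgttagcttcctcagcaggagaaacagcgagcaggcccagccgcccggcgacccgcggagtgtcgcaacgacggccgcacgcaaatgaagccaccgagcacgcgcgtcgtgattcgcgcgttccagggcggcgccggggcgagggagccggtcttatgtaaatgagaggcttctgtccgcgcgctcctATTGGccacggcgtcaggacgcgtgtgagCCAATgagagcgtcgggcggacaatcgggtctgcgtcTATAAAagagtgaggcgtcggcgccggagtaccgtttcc
H2bc8: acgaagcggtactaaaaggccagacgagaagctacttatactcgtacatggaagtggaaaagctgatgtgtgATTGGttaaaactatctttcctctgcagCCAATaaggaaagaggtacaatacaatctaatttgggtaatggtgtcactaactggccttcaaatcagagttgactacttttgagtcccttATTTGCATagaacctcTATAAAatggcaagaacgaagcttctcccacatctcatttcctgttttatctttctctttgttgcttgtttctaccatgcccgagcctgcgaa
H4c9: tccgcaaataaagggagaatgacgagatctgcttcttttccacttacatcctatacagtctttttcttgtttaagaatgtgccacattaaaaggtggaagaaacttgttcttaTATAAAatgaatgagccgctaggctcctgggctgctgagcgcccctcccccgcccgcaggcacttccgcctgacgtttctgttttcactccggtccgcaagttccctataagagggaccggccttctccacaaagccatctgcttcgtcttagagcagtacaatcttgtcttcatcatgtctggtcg

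The listed TPM of the histone genes was low as a set. Total RNA depleted of ribosomal RNA was sequenced, and the cause of the low values was not tested. In these libraries 21 members were listed at 0 throughout, 30 were above 0 in some library but too low to test, and 19 reached 1 TPM in at least 2 of the 8 libraries and were tested. The 21 that were 0 throughout included 16 of the 24 members in the first stretch of chromosome 13, 3 of the 31 in the second and none of the 10 on chromosome 3. Several of those 16 shared most of their 150-base windows (the read length) with other genes, such as *H2bc23* (93.2%), *H2ac23* (91.5%) and *H4c17* (85.8%). Others, such as *H1f5*, *H2ac15* and *H2bc14*, shared none. Among all members, 22 shared 50% or more of their windows. The part of read division among near-identical copies in the listed zeros was not tested. The 12 H3 genes together summed to 0.60 and 2.58 TPM in WT, while *H3f3a*, which encodes the replication-independent variant H3.3, had a mean of 940 TPM there. *H1f0* was the highest member in each library. Per length, the next level differed by group: in CypD KO it was that of *H2bc4* (mean 73.7 TPM), and in WT, Control and CypD OE that of *H4c9* (13.7, 20.7 and 9.79 TPM).

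Among members with the stem-loop letters, levels were lowest where the annotated transcript ended before the end of the stem-loop. Of the 22 members whose longest transcript ran at least 100 bases past the stem-loop, 1 was 0 throughout and 13 reached 1 TPM in some library. Of the 16 members whose annotated transcripts ended before the end of the stem-loop, 7 were 0 throughout, 1 reached 1 TPM, and none could be tested. Of the 21 that ended near it, 6 were 0 throughout and 10 reached 1 TPM. The median of the highest TPM was 0.97 for these and 1.08 for those that ran past it. Some members that ended before it, such as *H2ac13*, *H2ac15* and *H4c12*, lay in the first stretch of chromosome 13. The parts of 3′ end, position and annotated length in these levels were not separated. Within the highest class *H2bc4* stood apart in structure, since none of its 4 coding transcripts held the stem-loop in an exon and their ends lay 7825 to 9518 genomic bases beyond it. The transcript of *H1f2* ran 840 bases past its stem-loop and that of *H4c9* 330 bases, while those of *H4c8*, *H4c6* and *H2ac19* ended 46, 33 and 35 bases after theirs. TPM divides reads by annotated length, and a transcript that is longer or shorter than its annotation is misplaced on this scale.

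**Figure D1:**
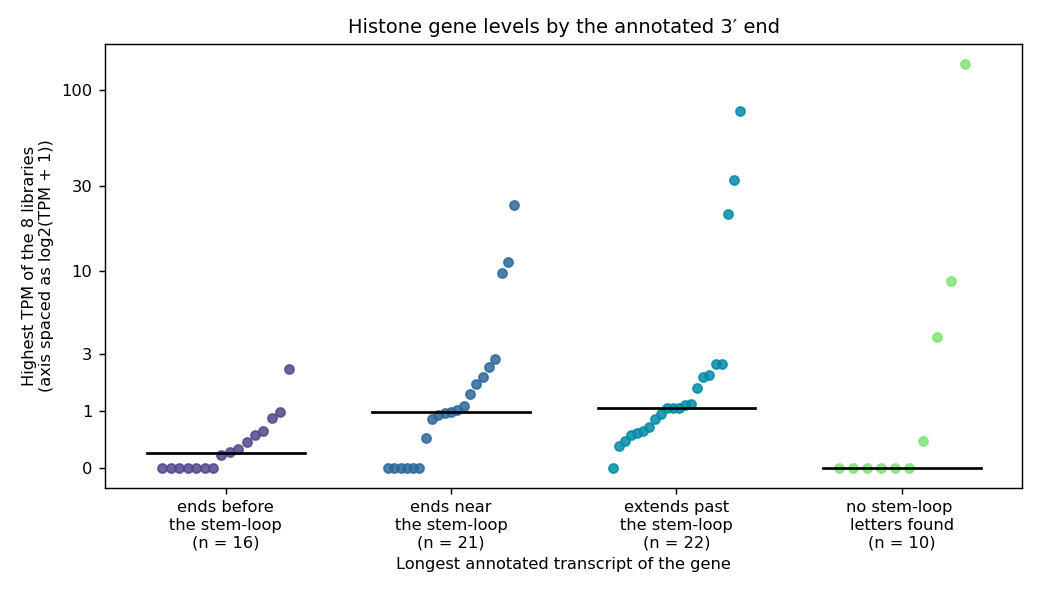
Highest TPM reached in the 8 libraries by each histone gene, grouped by where its longest annotated transcript ends relative to the stem-loop; points are genes, lines are medians and the vertical axis is spaced as log2(TPM + 1). The medians were 0.19 TPM for genes ending before the stem-loop, 0.97 near it, 1.08 past it and 0 for genes without the letters, where *H1f0* reached 137 TPM.

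At 21% O2, summed core histone transcripts stood higher in CypD KO than in WT. Such sums have no test here and are given with their spread. Summed TPM of the H2A, H2B, H3 and H4 genes was 35.2 and 33.0 in WT and 166 and 155 in CypD KO, a ratio of the means of 4.70. Of the families, H2A had the largest ratio, with 2.84 ± 0.12 TPM in WT and 31.6 ± 1.9 in CypD KO (mean ± SD, n = 2), and H2B the largest gap in amount, with 14.4 ± 0.23 and 90.3 ± 4.8 TPM. H4 summed to 15.3 ± 3.1 TPM in WT and 32.1 ± 2.0 in CypD KO, H3 to 1.59 ± 1.4 and 6.36 ± 1.0, and H1 to 104 ± 0.59 and 128 ± 0.90. The 2 groups did not overlap in any of the 5 sums. Rescaling the libraries by median-of-ratios factors, which were 1.05 to 1.06 in CypD KO and 0.97 to 1.00 in the others, lowered the ratio of the core sum to 4.34.

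**Figure D2:**
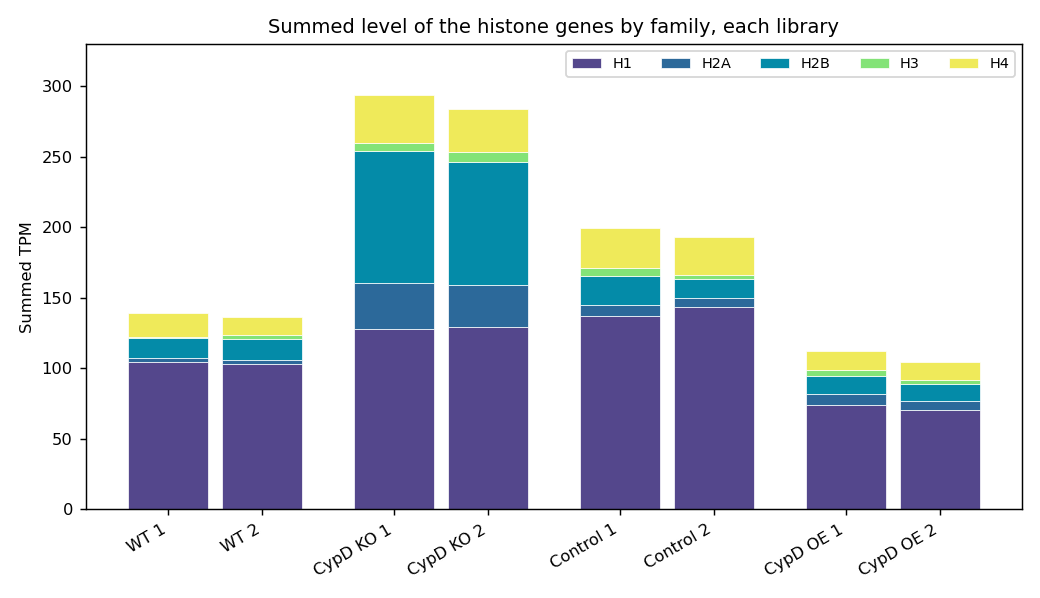
Summed TPM of the 70 histone genes in each library, stacked by family. Both CypD KO libraries stand highest (294 and 284 TPM) and both CypD OE libraries lowest (112 and 105 TPM), and the H2B segment in CypD KO is the largest core histone segment of the 8 bars.

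Of the 19 members tested, 11 were higher in CypD KO than in WT and none was lower, where 30.1% of the 13526 genes tested were called higher and 18.4% lower (limma, adjusted p under 0.05). At an unadjusted p under 0.05 the count of lower members was also 0. The median difference of the 19 was 1.21 on the log2(TPM + 1) scale and that of all genes tested was 0.09. *H2bc8* and *H3c14* reached 1 TPM in CypD KO only and so could enter the test only through that group. *H2bc11* and *H3c15* reached it in CypD KO and in 1 Control library, so they also needed CypD KO to enter. The count and the median over the 19 carry that selection. *H4c8* and *H2ac19*, below 1 TPM in both WT libraries, reached it in CypD KO and also in Control and CypD OE, respectively. Over the 49 members above 0 in any library, which needs no minimum of 1 TPM, both CypD KO libraries exceeded both WT libraries in 25 (51%) and fell below both in 2 (4.08%), against 32.9% and 19.1% of the 24706 genes above 0 in any library. Genes above 0 in CypD KO only, such as *H2bc8*, still entered both counts through that group. Genes above 0 numbered 19692 and 19456 in the CypD KO libraries and 18036 and 17942 in WT. The 25 comprised 4 H1, 4 H2A, 6 H2B, 6 H3 and 5 H4 genes. They included 16 of the 21 expressed members whose transcripts ran past the stem-loop, 7 of the 15 that ended near it, none of the 9 that ended before it and 2 of the 4 without its letters.

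*H2bc4*, on chromosome 13 between 23867631 and 23878163, had the highest level of the core histone genes in CypD KO, while *H4c9* had the higher mean in the other 3 groups, with overlapping values in CypD OE. It was at 8.64 and 7.77 TPM in WT, 76.7 and 70.7 in CypD KO, 9.22 and 7.27 in Control, and 9.22 and 8.30 in CypD OE. Only the CypD KO libraries stood apart, and the other 3 groups overlapped. Its level was 8.98 times as high in CypD KO as in WT, a log2 difference of 3.02 ± 0.12 (SE; limma adjusted p = 5.72e-06). It made up 46.3% and 45.6% of summed core histone TPM in CypD KO and 24.5% and 23.5% in WT, where *H4c9* made up 42.6% and 37.7%. *H2ac6*, which overlaps it on the opposite strand, was 0 in both WT libraries and 0.43 and 0.49 TPM in CypD KO. Only 4.97% of the 150-base windows of its transcripts occurred in another gene.

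*H2ac19* and *H2ac18*, which code for H2A on chromosome 3, also differed in CypD KO, but they are nearly the same sequence. *H2ac19* was at 0 in both WT libraries, 23.7 and 17.4 TPM in CypD KO, 0 and 0.43 in Control, and 1.00 and 1.37 in CypD OE, and rose in CypD KO by 4.41 ± 0.23 (SE) on the log2 scale (limma adjusted p = 1.75e-05). *H2ac18* was at 0.58 and 0.71 TPM in WT, 4.68 and 9.83 in CypD KO, 3.06 and 2.19 in Control, and 2.68 and 1.14 in CypD OE, with a difference of 2.25 ± 0.37 in CypD KO (limma adjusted p = 0.00236). Of their 150-base windows, 100% and 87.0% occurred in another gene. *H2ac19* shared 379 windows with *H2ac18* and 379 with *Gm20634*. *H2ac18* shared 380 with *Gm20634*, which overlaps it on the same strand. The split among these genes is uncertain, and the sum given here leaves *Gm20634* out. The sum of *H2ac18* and *H2ac19* was steadier in CypD KO than either gene, at 28.3 and 27.3 TPM there and 0.58 and 0.71 TPM in WT. In Control the sum was 3.06 and 2.62 TPM and in CypD OE 3.68 and 2.51, ranges that overlapped.

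Among H4 genes, *H4c8* and *H4c6* were listed at 0 in WT and *H4c9* was the highest. *H4c8* was at 0 in both WT libraries, 11.4 and 9.41 TPM in CypD KO, 1.39 and 1.13 in Control, and 0.31 and 0.61 in CypD OE. It rose in CypD KO by 3.51 ± 0.18 (limma adjusted p = 1.47e-05). *H4c9* was already at 15 and 12.5 TPM in WT and was at 17.6 and 17.5 in CypD KO, 20.2 and 21.1 in Control, and 10.4 and 9.17 in CypD OE. Its difference in CypD KO was 0.34 ± 0.10 (limma adjusted p = 0.0326), and the call was lost under the rescaling (adjusted p = 0.101) and without WT replicate 2 (adjusted p = 0.150), CypD KO replicate 1 (0.115) or CypD KO replicate 2 (0.107). *H4c6* was 0 in both WT libraries and 0.44 and 0.94 TPM in CypD KO, a difference of 0.74 ± 0.22 (limma adjusted p = 0.0296) that also missed the threshold when either WT library (adjusted p = 0.0906 and 0.0905) or CypD KO replicate 2 (0.131) was left out. For genes at 0 in WT, the size of a log2 difference depends on the constant added: with 0.1 in place of 1 those of *H2ac19* and *H4c8* became 7.67 and 6.71.

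The linker histones separated by gene. *H1f2*, which encodes the replication-dependent H1.2 and has no read-length window in common with another gene, was at 8.39 and 8.98 TPM in WT and 32.5 and 28.4 in CypD KO, an increase of 1.70 ± 0.13 (limma adjusted p = 9.56e-05). *H1f10* was at 0.71 and 1.51 TPM in WT and 3.80 and 3.95 in CypD KO, an increase of 1.23 ± 0.22 (limma adjusted p = 0.00348). *H1f0* was at 94.5 and 92.3 TPM in WT and 90.0 and 95.1 in CypD KO, and these ranges overlapped (difference -0.01 ± 0.05, limma adjusted p = 0.838). *H1f0* accordingly supplied 90.6% and 89.2% of summed H1 TPM in WT but 70.4% and 73.7% in CypD KO, and *H1f2* 8.04% and 8.68% against 25.5% and 22.0%. Among lower H1 genes, *H1f3* was at 0.04 and 0.05 TPM in WT and 0.56 in each CypD KO library.

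H3 genes stayed near the lower limit of the table. *H3c15*, the H3 gene with the highest mean, was at 0 and 0.26 TPM in WT, 0.93 and 2.54 in CypD KO, 1.35 and 0 in Control, and 0.91 and 0.17 in CypD OE. Its difference in CypD KO, 1.22 ± 0.49, missed the threshold (limma adjusted p = 0.0798). *H3c14*, whose windows were all found in another gene, was at 0.18 and 0 TPM in WT and 1.53 and 2.02 in CypD KO (limma adjusted p = 0.00285). Summed over *H3c13*, *H3c14* and *H3c15*, which share windows, the level was 0.18 and 0.26 TPM in WT and 2.46 and 4.56 TPM in CypD KO. *Gm20634*, which held all 1676 windows of *H3c14*, was left out of this sum.

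The remaining members called higher in CypD KO were both H2B genes. *H2bc21*, which lacks the stem-loop letters and whose transcript is 2620 bases long, was at 2.34 and 3.69 TPM in WT and 8.81 and 7.55 in CypD KO (limma adjusted p = 0.00185). *H2bc8* was at 0 in WT, Control and CypD OE and at 2.53 and 1.93 TPM in CypD KO (limma adjusted p = 0.000417), with 39.0% of its windows also in other genes, above all *H2bc4*. The 2 members for which both CypD KO libraries lay below both WT libraries were *H2ac10* and *H2bc18*. *H2ac10* was at 0.45 and 0.65 TPM in WT and 0 in CypD KO, and *H2bc18* at 0.99 and 0.94 against 0 and 0.27. By region, the sum of the 31 members in the second stretch of chromosome 13 was 23.1 and 23.3 TPM in WT and 138 and 122 in CypD KO. On chromosome 3 it was 4.43 and 5.90 against 41.0 and 41.0 TPM. In the first stretch of chromosome 13, where *H4c9* lies, it was 16.8 and 13.5 against 20.5 and 21.6 TPM.

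**Figure D3:**
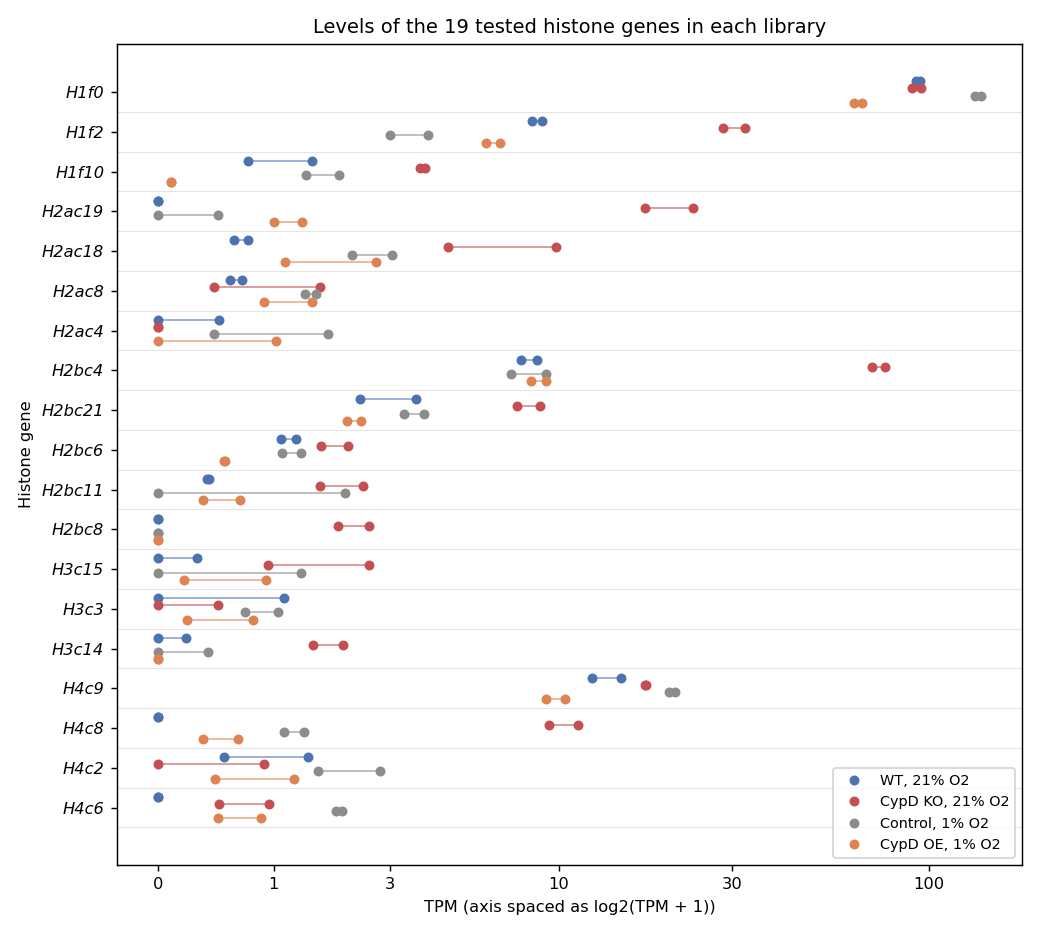
TPM of the 19 tested histone genes in each of the 8 libraries; each point is a library, a line joins the 2 libraries of a group, colours give the group and the axis is spaced as log2(TPM + 1). *H2bc4* at 71 to 77 TPM and *H1f2* at 28 to 33 TPM in CypD KO stand to the right of the other groups, and *H1f0* is highest in Control (132 and 137 TPM) and lowest in CypD OE (67 and 64 TPM).

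At 1% O2, the summed histone level stood lower in the libraries labelled CypD OE than in Control, mostly through *H1f0*, whose mean was 134 TPM in Control and 65.2 in CypD OE. Summed TPM of the 70 members was 200 and 193 in Control and 112 and 105 in CypD OE, a ratio of means of 0.551. H1 summed to 140 ± 4.4 TPM in Control and 72.3 ± 2.6 in CypD OE (mean ± SD, n = 2), and H4 to 27.9 ± 1.3 and 13.1 ± 0.59 TPM. H2A summed to 6.88 ± 1.0 TPM in Control and 6.72 ± 0.96 in CypD OE, H2B to 17.2 ± 4.6 and 12.8 ± 0.31, and H3 to 4.23 ± 2.0 and 3.42 ± 0.77; of these 3 families, only H2B had libraries that did not overlap.

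In CypD OE, 2 of the 19 members passed the test as higher than in Control and 6 as lower, against 19% and 18.3% of all genes tested (limma, adjusted p under 0.05), and the median difference was -0.36 where that of all genes was 0.00. *H4c6* reached 1 TPM in Control only and so could enter the test only through that group. Over the 49 members above 0, both CypD OE libraries lay above both Control libraries in 5 (10.2%) and below both in 14 (28.6%), against 23.3% and 23.8% of genes above 0.

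The 2 Control libraries had 132 and 137 TPM of *H1f0*, and CypD OE had 66.7 and 63.6, or 48.5% of Control, a log2 difference of -1.03 ± 0.05 (SE; limma adjusted p = 1.42e-05). In order of level *H1f0* ran from CypD OE through CypD KO and WT, which overlapped, to Control. *H1f10* had 1.43 and 1.95 TPM in Control and 0.08 in each CypD OE library, a difference of -1.31 ± 0.22 (limma adjusted p = 0.00388). *H1f2* went the other way, from 3 and 4.04 TPM in Control to 6.73 and 6.14 in CypD OE, an increase of 0.73 ± 0.13 (limma adjusted p = 0.00596).

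*H4c9* was at 47.4% of Control in CypD OE, a difference of -1.01 ± 0.10 (limma adjusted p = 0.000485). For *H4c6* the values were 2.01 and 1.91 TPM in Control against 0.43 and 0.85 in CypD OE (-0.86 ± 0.22, limma adjusted p = 0.0212), and *H4c8* differed by -0.64 ± 0.18 (limma adjusted p = 0.0292). The sixth member called lower was *H2bc6*, at 1.35 and 1.10 TPM in Control and 0.49 and 0.48 in CypD OE (limma adjusted p = 0.0317). The other member called higher, *H2ac19*, differed by 0.86 ± 0.23 (limma adjusted p = 0.0256), at about 1 TPM. All its windows occurred in other genes. Its sum with *H2ac18* overlapped between Control (3.06 and 2.62 TPM) and CypD OE (3.68 and 2.51), so this call depends on the split between copies. The calls of *H2ac19*, *H4c8* and *H4c6* did not hold in each fit: without 1 library they reached adjusted p-values of up to 0.121, 0.131 and 0.106. *H2bc4* did not pass the test (0.08 ± 0.12, limma adjusted p = 0.626).

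Across both comparisons, 4 members were called higher in CypD KO and lower in CypD OE (*H1f10*, *H4c6*, *H4c8* and *H4c9*), 2 were called higher in both (*H1f2* and *H2ac19*) and 5 were higher in CypD KO only by call, which is no test that the comparisons differ. These comparisons share no library. For *H2ac19* the call in CypD OE depends on the split of reads with *H2ac18*, since their sum overlapped between CypD OE and Control. The calls of *H4c9* in CypD KO, of *H4c8* and *H2ac19* in CypD OE, and of *H4c6* in both did not hold in each fit, as given above.

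**Figure D4:**
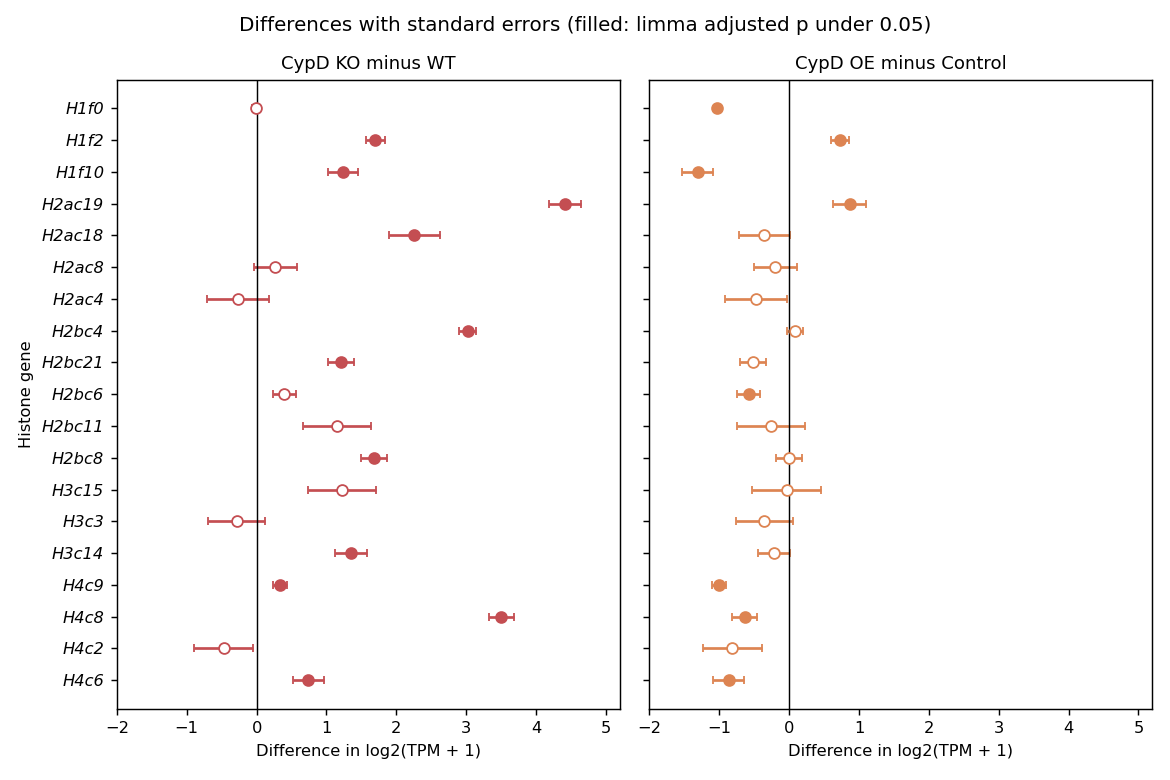
Differences in log2(TPM + 1) of the 19 tested histone genes between CypD KO and WT (left) and between CypD OE and Control (right); bars are standard errors from the limma fit and filled points passed an adjusted p of 0.05. On the left 11 filled points lie above 0, led by *H2ac19* at 4.41, and on the right 6 lie below 0 and 2 above.

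Control and WT differ in oxygen, vector and clone at the same time, and each belongs to another comparison above. Of the 19 members, 4 were higher and 1 was lower in Control than in WT, against 12.1% and 12.1% of genes tested (limma, adjusted p under 0.05). The 4 were *H1f0* (0.52 ± 0.05, limma adjusted p = 0.000535), *H4c9* (0.56 ± 0.10, 0.00962), *H4c8* (1.17 ± 0.18, 0.00454) and *H4c6* (1.57 ± 0.22, 0.00345). *H1f2* was lower, by -1.11 ± 0.13 (limma adjusted p = 0.00198). The call of *H4c9* did not hold in each fit. Of the 3 H4 genes, *H4c6* and *H4c8* were at 0 in WT and above 1 TPM in Control, and *H4c6* entered the test only through Control, so its call carries that selection.

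Genes that make and handle histone mRNA and histone protein were called lower more often than higher in CypD KO. Of 16 genes of histone mRNA synthesis and processing that were tested, 1 was higher and 6 were lower in CypD KO (median -0.18; limma), where 30.1% of all genes tested were higher and 18.4% lower with a median of 0.09. *Slbp*, which encodes the stem-loop binding protein, had means of 106 TPM in CypD KO and 111 in WT (limma adjusted p = 0.479). *Tut7*, a terminal uridylyltransferase that acts in histone mRNA decay, was higher by 0.48, whereas *Coil*, encoding the Cajal body protein coilin, and *Srrt*, encoding the cap-associated protein ARS2, differed by -0.47 and -0.35. Of 22 histone chaperone genes none was higher and 14 were lower (median -0.26). *Nasp*, an H3-H4 chaperone, differed by -0.85, *Npm1*, nucleophosmin, by -0.74, and *Asf1a*, a chaperone of new H3-H4, by -0.50.

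Of 8 tested genes for replication-independent variants, 2 were higher and 5 lower in CypD KO, where 30.1% of all genes tested were higher and 18.4% lower. *H2az1* (H2A.Z) was at 1015 TPM in WT and 557 in CypD KO, *H3f3a* at 940 and 675, and *H2az2*, the second H2A.Z gene, at 31.1 and 42.4, and all 3 passed the test. Of 40 DNA replication genes, 2 were higher and 24 lower (median -0.20), with the largest differences in *Gins1*, a subunit of the replicative helicase (-0.86), *Tyms*, thymidylate synthase (-0.59), and *E2f2*, an activator of S phase genes (-0.56). The summed level of the replication list was 5040 TPM in both WT libraries and 4280 to 4310 in CypD KO. The part of these differences in the levels of the histone genes was not tested.

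In CypD OE against Control the lists were divided, where 19% of all genes tested were higher and 18.3% lower. The processing list had 3 genes higher and 1 lower, among them *Tut7* (0.63), *Eri1*, the exonuclease that trims the stem-loop (0.62), and *Cpsf3*, the endonuclease that cuts histone pre-mRNA (-0.38). The chaperones had 6 higher and 2 lower, with *Hat1*, which acetylates new H4 (-0.60), *Ssrp1*, a FACT subunit (-0.31), and *Npm1* (0.28) furthest from 0. The variants had 1 higher, *Macroh2a1* (0.57), and 3 lower, among them *H2az2* (-0.44) and *H2az1* (-0.27). DNA replication genes had 11 higher and 11 lower, and the largest differences were in *Cdk2*, the S phase kinase (-1.08), *Gins2* (-0.62) and *Gins3* (-0.56).

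**Figure D5:**
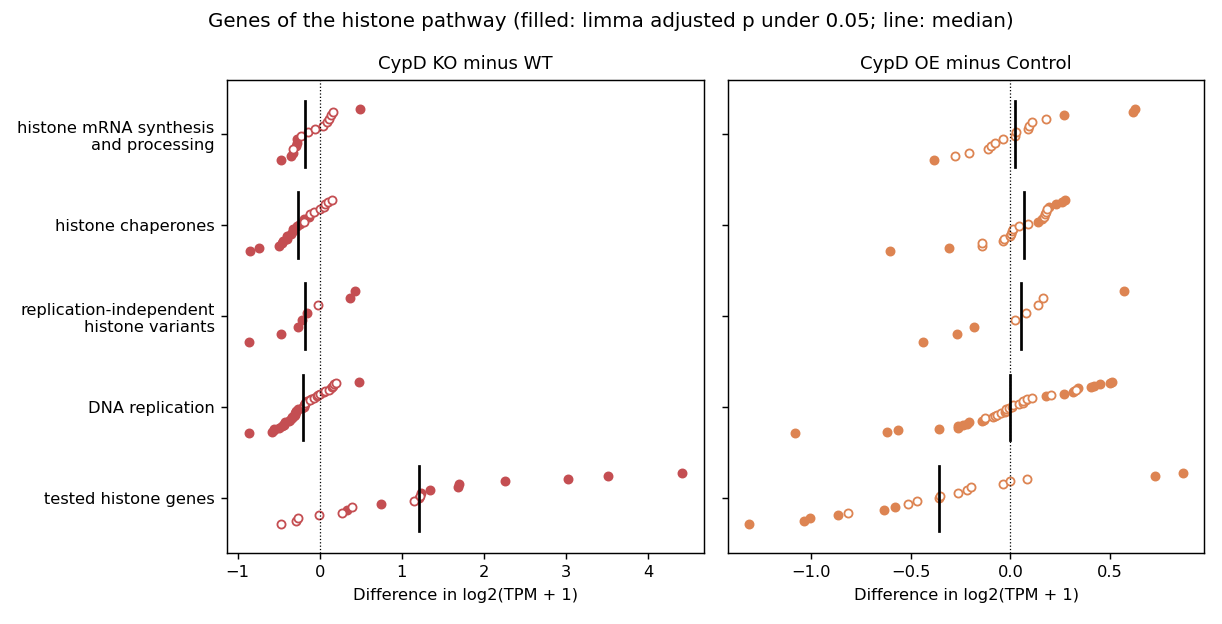
Differences in log2(TPM + 1) of the genes of 4 histone-related lists and of the 19 tested histone genes, in CypD KO against WT and CypD OE against Control; each point is a gene, filled points passed a limma adjusted p of 0.05, and vertical lines are medians. In CypD KO the 4 lists have medians of -0.18 to -0.26 while the tested histone genes have a median of 1.21, with some of them tested only because of their level in CypD KO.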

How the data were processed

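RNA-seq was compared between 8 libraries of B16F10 cells, 2 in each of 4 groups taken from the labels. The authors made total RNA libraries depleted of ribosomal RNA, and the submitters' processing notes name Cutadapt 3.4, STAR 2.7.8a, RSEM 1.3.1, DESeq2 1.26.0 and GRCm39. The values deposited by the authors are TPM per Ensembl gene, which sum to the same total in all 8 libraries, so a rise of abundant transcripts lowers all others, and RSEM divides reads between near-identical copies. No counts or depths were used here, and 0 columns were left without a sample. The members, gene lists and tests were chosen with earlier results of these data known.

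Tests were run on log2(TPM + 1) for the 13526 genes that reached 1 TPM in 2 or more libraries, using limma 3.58.1 under R 4.3.3 (4 group means, eBayes with trend, two-sided, Benjamini-Hochberg adjustment, threshold 0.05). The procedure was tested on simulated data. An exact permutation test of 2 against 2 libraries cannot go below 0.333 and was not used. Positions, overlaps, shared 150-base windows (the read length) and stem-loops came from GRCm39 and GENCODE vM39, which may not be the annotation release the authors counted on. Figures were drawn with matplotlib 3.10.9 in Python 3.11.15.

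Genes were named by rule: up to 5 members with the largest rise and fall past the threshold in each genotype comparison, the member with the highest mean of each family, tested H1 genes, members called in opposite directions, *Ppif*, and the 3 genes with the largest called difference of each histone pathway list. *H1f3*, *H2ac6*, *H2ac8*, *H2ac10*, *H2bc6*, *H2bc8*, *H2bc11*, *H2bc18*, *H2bc21*, *H3c14*, *Slbp* and the cell type markers named were added after their values were seen. Alternatives were a pseudocount of 0.1, no minimum TPM and a minimum of 5, rescaling by median-of-ratios factors, fits of 4 libraries, a replicate block, eBayes without trend, and leaving out each library.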

Additional observations from a re-analysis of the deposited data

How the results depend on the processing

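Calls in CypD KO held more often than those in CypD OE. In CypD KO against WT, 11 members were higher in the reported fit, 17 without a filter on low TPM and 6 with a filter of 5 TPM, which changes how many genes are tested, and 9 to 12 when 1 library was left out. No member was lower in the reported fit and 1 was without the filter. Members higher in CypD OE numbered 2, 1 in a fit of its own 4 libraries and 1 to 2 without 1 library, and 1 without Control replicate 1, CypD OE replicate 1 or CypD OE replicate 2. Members lower numbered 6, 2 with the 5 TPM filter and 3 to 7 without 1 library, with 3 without Control replicate 1 or CypD OE replicate 1. The ratio of summed TPM of all members in CypD KO moved from 2.09 to 1.93 under rescaling, where the median of all genes tested moved from 0.09 to -0.01.

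The differences of *H2bc4* (2.91 to 3.15) and *H1f2* (1.59 to 1.80) in CypD KO and of *H1f0* (-1.07 to -1) in CypD OE passed the threshold in all 16 settings. Values that changed sign were uncalled or untested. Leaving out 1 library at a time, those in CypD KO were *H1f0* (-0.052 to 0.026), and those in CypD OE were *H2bc4* (-0.068 to 0.24), *H2ac18* (-0.75 to 0.032), *H3c15* (-0.65 to 0.58, and 0.46 with a pseudocount of 0.1) and the ratios of summed H2A (0.878 to 1.09) and H3 (0.603 to 1.22). In Control against WT they were *H2bc4* (-0.15 to 0.15), *H3c15* (-0.17 to 1.07) and the ratio of summed H2B (0.966 to 1.42). There *H2ac19* (0 to 0.52) fell to 0 without changing sign. The cause was not tested.

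Replicate numbers pair the libraries only by name: deviations of same-numbered libraries correlated at 0.108 (CypD KO and WT), -0.00175 (CypD OE and Control) and -0.0186 (Control and WT) over 13526 genes. With a replicate block, 11 members were higher in CypD KO, 2 higher and 6 lower in CypD OE, and 5 higher in Control than in WT against 4 without it. Depth is unknown from TPM, so differences among members near 1 TPM cannot be set against counting error.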
